A study of Homo sapiens with 8 samples.

Results

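The genes described are 36 aminoacyl-tRNA synthetases, 20 that serve the cytosol and 16 that serve the mitochondrion, out of 40693 gene symbols in the deposited count tables. They were taken by symbol, with a final 2 marking the mitochondrial enzymes, and none of the 36 symbols occurred on more than 1 row. RNA was sequenced from SW620 and SW480, established human colorectal adenocarcinoma cell lines labelled Dukes' type C and Dukes' type B. The tested SW620 populations carried a short hairpin RNA against the forkhead transcription factor FOXA2 (shFOXA2, 3 libraries), and their controls carried a control hairpin (shNC, 3 libraries). Both kinds of hairpin were expressed from the same lentiviral U6 vector, which also encodes puromycin resistance and mCherry, and the populations were stable ones selected with puromycin at 2 µg/ml. The protocols list a pair of FOXA2 target sites and a single control site, and the titles of the shFOXA2 libraries name the first of them, so the comparison rests on 1 hairpin against 1 control. Untreated SW620 and untreated SW480 gave 1 library each. The labels do not state whether replicates are separate cultures, so p-values here reflect the spread among these libraries, which may be technical. By chi-square of the counts per degree of freedom, replicates 2 and 3 differed by 1.67 in shFOXA2 and 1.74 in shNC. Pairs with replicate 1 of the same group differed by 3.97 to 4.59.

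Aminoacyl-tRNA synthetases join each amino acid to its tRNA, the step that sets the meaning of the genetic code in translation. Human cells keep a cytosolic and a mitochondrial set, both encoded in the nucleus. KARS (lysine) and GARS (glycine) serve both compartments from a single gene each, EPRS carries the glutamate and proline activities in 1 protein, and FARSA and FARSB are the α and β subunits of 1 enzyme. Several cytosolic enzymes sit in a multi-synthetase complex held by the scaffold proteins AIMP1, AIMP2 and EEF1E1. Many cytosolic synthetase genes are also known targets of ATF4, the transcription factor of the amino acid response, which binds a composite site together with C/EBP proteins.

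The hairpin libraries held 7478411 to 13076566 counts, the SW620 library 95935348 and the SW480 library 72323506. FOXA2 itself had 30.3, 29.3 and 22.2 CPM (counts scaled to library size with TMM factors) in shFOXA2 libraries, against 52.5, 49.0 and 51.9 in shNC libraries. The groups did not overlap (log2 fold change −0.91, SE 0.09, edgeR adjusted p = 6.88e-10). Replicate 1 of shFOXA2 stood apart in 62 genes and replicate 1 of shNC in 14, each at least 4 times above every other hairpin library with at least 30 counts; none of these genes is a synthetase. Of 10 colorectal epithelial markers, 9 had counts in every hairpin library and CDX1 was at 0. The summed level of 8 fibroblast markers was 686 to 710 CPM in shFOXA2 libraries and 420 to 464 in shNC libraries, nearly all of it VIM, with COL1A2 and COL3A1 at 0. Summed leukocyte markers (8 genes) stood at 142 to 151 CPM in shFOXA2 and 52.0 to 56.4 in shNC, mostly PRF1, with CD3E at 0. Summed hepatocyte markers (8 genes) were 179, 27.7 and 25.8 CPM in shFOXA2 and 24.0 to 27.6 in shNC, where the first value is mostly APOB, and TTR and FGB were at 0. Summed endothelial markers (3 genes) were 0.679 to 1.17 CPM in shFOXA2 and 0.693 to 3.58 in shNC. The part of these differences in the results for the synthetases was not tested.

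After FOXA2 knockdown the cytosolic enzymes moved in both directions by small amounts, while more of the mitochondrial enzymes fell, led by the seryl- and asparaginyl-tRNA synthetases SARS2 and NARS2. All 36 genes passed the filter on low counts, the smallest count of any of them in a hairpin library being 75. At an edgeR quasi-likelihood adjusted p under 0.05, 3 cytosolic genes rose, 6 fell and 11 were not called, and 2 mitochondrial genes rose, 7 fell and 7 were not called. Without both libraries numbered 1, 2 cytosolic genes were higher and 5 lower, and 1 mitochondrial gene was higher and 5 lower. Of all 16100 genes tested, 39.0% were called, 19.2% as higher and 19.8% as lower. Against that background the cytosolic share called was 45%, with 15% higher and 30% lower, and the mitochondrial share was 56.25%, with 12.5% higher and 43.75% lower. The median log2 fold change was 0.01 over the cytosolic genes, −0.14 over the mitochondrial genes and 0.01 over all genes tested. In bulk RNA, fewer cells that express a gene and less RNA per cell cannot be told apart.

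**Figure D1:**
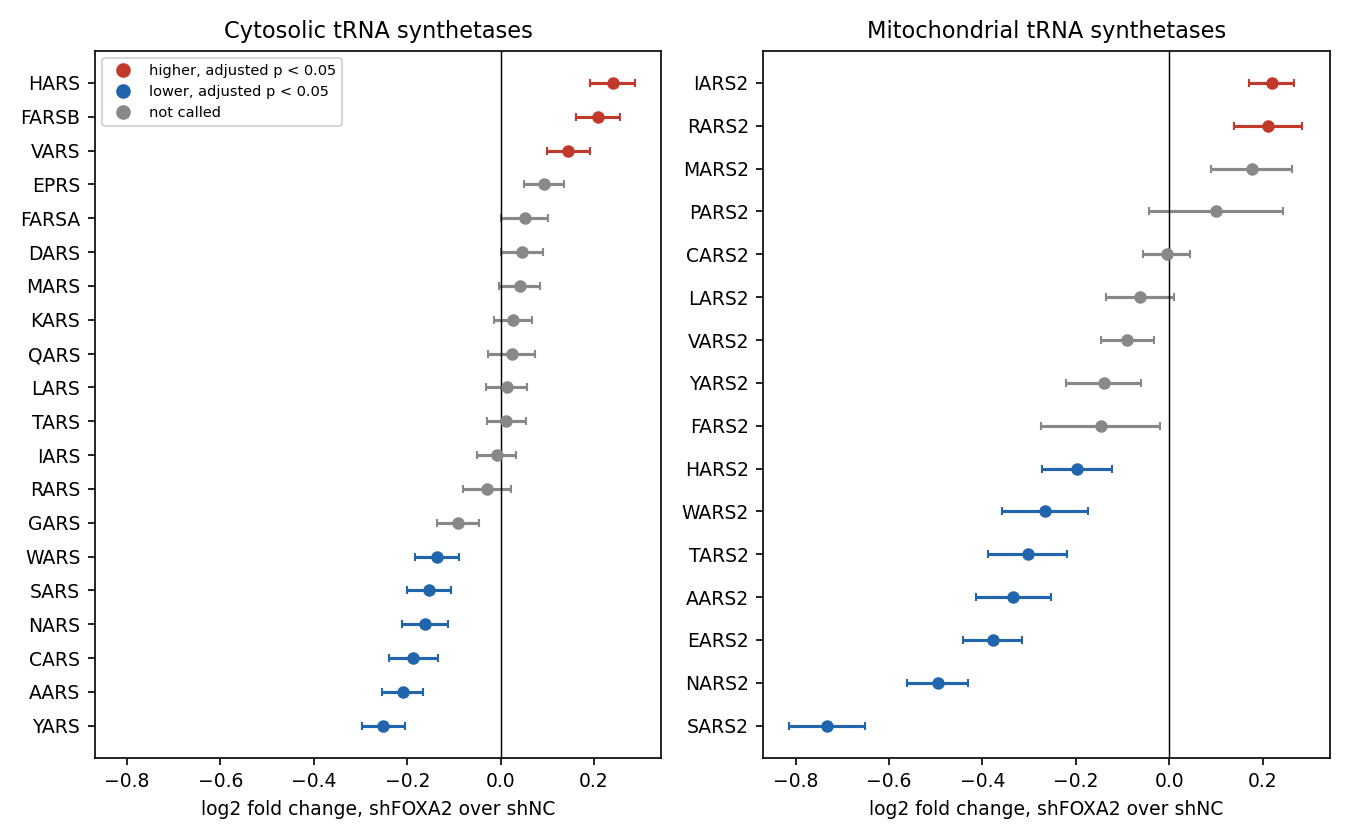
Log2 fold change of shFOXA2 over shNC (x axis) for the 20 cytosolic (left) and 16 mitochondrial (right) tRNA synthetases, with bars of 1 SE from edgeR and colours for the call at an adjusted p of 0.05. The cytosolic values lie between −0.25 and 0.24, and the mitochondrial values reach −0.73 at SARS2.

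The summed level of each set shows the same contrast in size. The 16 mitochondrial genes summed to 703, 702 and 676 CPM in shFOXA2 libraries (694 ± 15.5, SD, n = 3), against 732, 741 and 751 CPM in shNC libraries (742 ± 9.50, SD, n = 3). Those groups did not overlap. The 20 cytosolic genes summed to 4253, 4291 and 4247 CPM in shFOXA2 libraries, against 4222, 4376 and 4366 CPM in shNC libraries, and those groups overlapped.

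Among the cytosolic enzymes, YARS (tyrosine), on chromosome 1, changed most. It had 174, 165 and 169 CPM in shFOXA2 libraries, against 191, 205 and 210 CPM in shNC libraries. The groups did not overlap, and the log2 fold change was −0.25 (SE 0.05, edgeR adjusted p = 1.76e-05). AARS (alanine) had 366, 334 and 350 CPM in shFOXA2 libraries, against 388, 407 and 420 CPM in shNC libraries. Every shFOXA2 library was below every shNC library (log2 fold change −0.21, SE 0.04, edgeR adjusted p = 0.000119). CARS (cysteine) had 169, 156 and 165 CPM in shFOXA2 libraries, against 169, 192 and 198 CPM in shNC libraries. Its groups overlapped at replicate 1 of each, and it fell (log2 fold change −0.19, SE 0.05, edgeR adjusted p = 0.00422).

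Smaller decreases were called for NARS (asparagine), SARS (serine) and WARS (tryptophan). NARS had 116, 131 and 115 CPM in shFOXA2 libraries, against 139, 133 and 132 CPM in shNC libraries. SARS had 95.8, 101 and 99.2 CPM in shFOXA2 libraries, against 106, 114 and 108 CPM in shNC libraries. WARS had 139, 138 and 138 CPM in shFOXA2 libraries, against 150, 160 and 146 CPM in shNC libraries. None of the 3 genes had overlapping groups. Their log2 fold changes were −0.16, −0.15 and −0.14 with edgeR adjusted p-values of 0.00791, 0.00912 and 0.0178. Each of these calls was lost when some single library was left out: NARS without replicate 1 (adjusted p = 0.0572) or replicate 3 (0.0509) of shFOXA2, SARS without replicate 1 of shFOXA2 (0.0661) or replicate 2 of shNC (0.0736), and WARS without replicate 2 of shNC (0.139).

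The cytosolic genes that rose were HARS (histidine), FARSB (the β subunit for phenylalanine) and VARS (valine). HARS had 129, 145 and 131 CPM in shFOXA2 libraries, against 116, 116 and 109 CPM in shNC libraries. FARSB had 138, 150 and 143 CPM in shFOXA2 libraries, against 125, 125 and 123 CPM in shNC libraries. VARS had 183, 179 and 185 CPM in shFOXA2 libraries, against 156, 171 and 168 CPM in shNC libraries. In each of the 3, all shFOXA2 libraries were above all shNC libraries. The log2 fold changes were 0.24, 0.21 and 0.14, with edgeR adjusted p-values of 9.52e-05, 0.000334 and 0.0097. FARSA, which encodes the partner subunit of FARSB, had a log2 fold change of 0.05 (SE 0.05) and was not called (adjusted p = 0.444). The VARS call was lost without replicate 3 of shFOXA2 (adjusted p = 0.0664) or replicate 1 of shNC (0.118).

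The 9 called cytosolic genes all encode enzymes outside the multi-synthetase complex. This grouping comes from textbook membership and was made after the values were seen, so it carries no test. None of the 8 enzymes of the multi-synthetase complex (DARS, EPRS, IARS, KARS, LARS, MARS, QARS and RARS) was called by edgeR, and at an unadjusted p under 0.05 there was 1, EPRS, higher. Their log2 fold changes lay between −0.03 and 0.09. Of the 12 cytosolic genes outside the complex, 3 were called higher and 6 lower, with log2 fold changes between −0.25 and 0.24, against the background of 39.0% called. None of the 8 was called in any of the 15 alternative settings of this comparison either, DESeq2 and limma-voom included. A difference in call is not a test that the groups differ.

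The complex enzymes summed to 1971, 2003 and 1975 CPM in shFOXA2 libraries, against 1936, 1939 and 1965 CPM in shNC libraries. Those sums did not overlap, with shFOXA2 higher. The cytosolic enzymes outside the complex summed to 2282, 2288 and 2272 CPM in shFOXA2 libraries, against 2286, 2437 and 2401 CPM in shNC libraries, which overlapped. KARS, the most abundant of them, had 531, 564 and 540 CPM in shFOXA2 libraries, against 541, 528 and 536 CPM in shNC libraries. Those values overlap, and the log2 fold change of 0.03 has an SE of 0.04. Of the 3 scaffold genes, AIMP1 and EEF1E1 rose and AIMP2 was not called (log2 fold change 0.08, adjusted p = 0.24). AIMP1 had 60.2, 62.9 and 58.1 CPM in shFOXA2 libraries, against 51.8, 52.5 and 51.7 CPM in shNC libraries. EEF1E1 had 65.8, 65.5 and 62.0 CPM in shFOXA2 libraries, against 56.1, 56.8 and 59.1 CPM in shNC libraries. Neither pair of groups overlapped, with log2 fold changes of 0.21 and 0.17 (edgeR adjusted p = 0.00384 and 0.0187). Leaving out replicate 1 or 2 of either group left 1 of the 3 scaffold genes called.

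**Figure D2:**
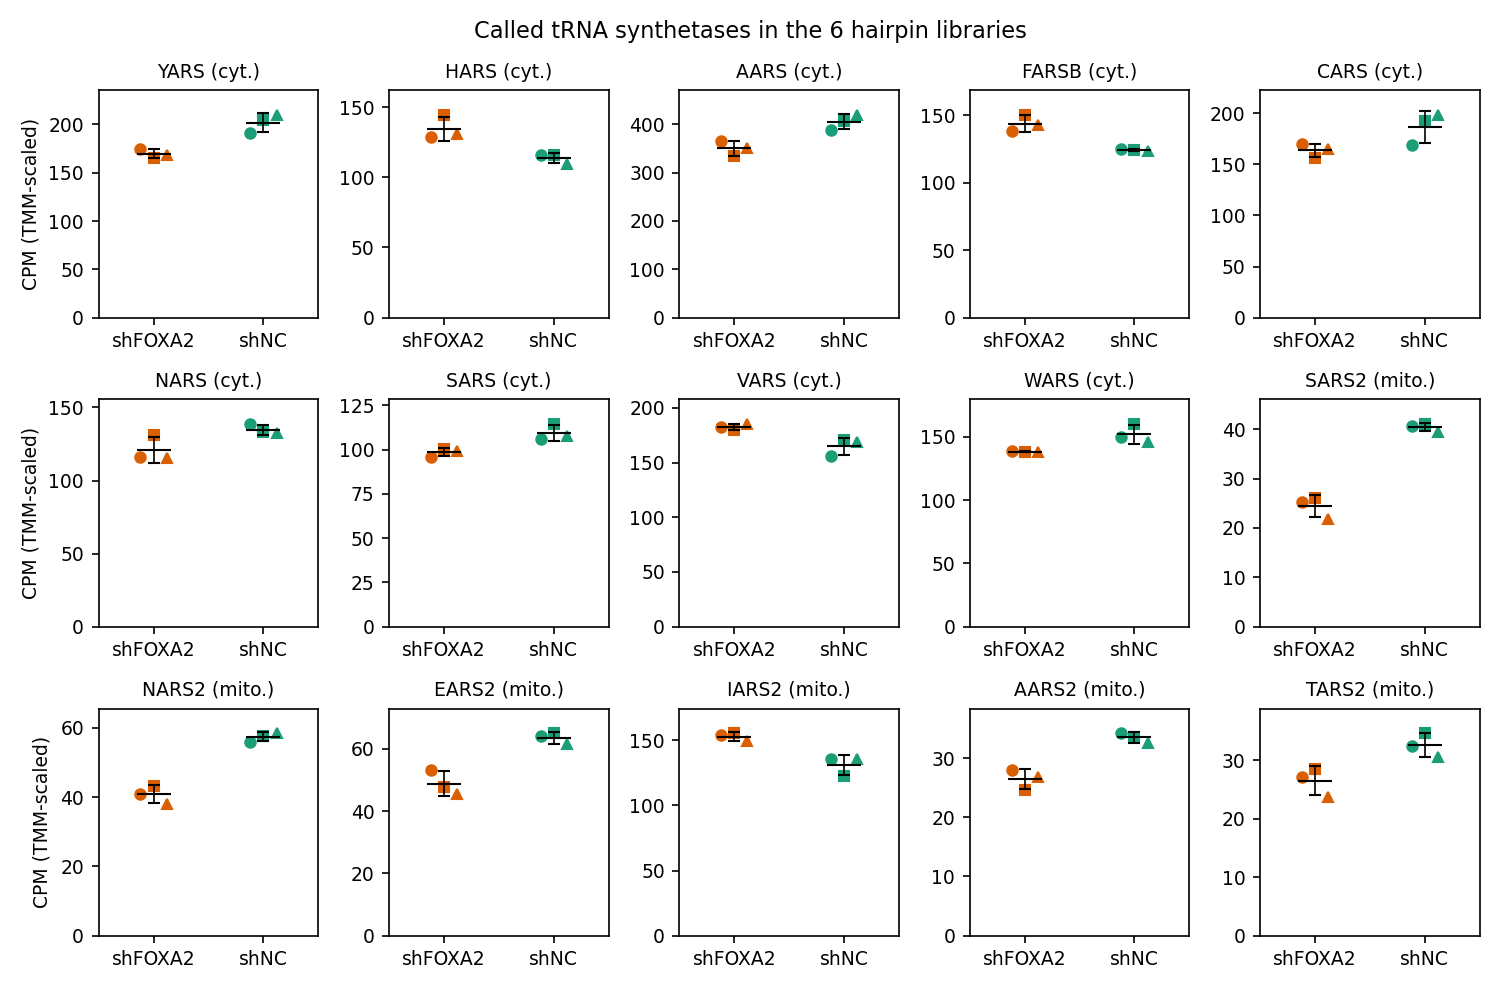
TMM-scaled CPM (y axis, from 0) of 9 called cytosolic and 6 called mitochondrial tRNA synthetases in the 3 shFOXA2 and 3 shNC libraries, with circles, squares and triangles for replicates 1, 2 and 3 and bars for the mean ± SD. The groups overlap in CARS, and SARS2 has the largest ratio between groups, with 25.3, 26.1 and 21.8 CPM in shFOXA2 against 40.7, 41.1 and 39.5 CPM in shNC.

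SARS2, which charges the mitochondrial serine tRNAs, fell most of the 36 genes. It had 25.3, 26.1 and 21.8 CPM in shFOXA2 libraries, against 40.7, 41.1 and 39.5 CPM in shNC libraries. The groups were far apart (24.4 ± 2.25 against 40.4 ± 0.846 CPM, SD, n = 3 each), and the log2 fold change was −0.73 (SE 0.08, edgeR adjusted p = 7.65e-10). In GENCODE release 29 on GRCh38, SARS2 lies on the minus strand of chromosome 19 at chr19:38915266-38930896. Its start overlaps that of MRPS12, a mitochondrial ribosomal protein gene on the opposite strand, by 349 bases. MRPS12 had 33.1, 38.4 and 34.1 CPM in shFOXA2 libraries, against 59.5, 60.3 and 62.7 CPM in shNC libraries. It fell as well (log2 fold change −0.80, SE 0.07, edgeR adjusted p = 6.83e-13). The SARS2 level is uncertain where reads are shared with MRPS12, because the counting is not stated to use strand. Another gene, AC011455.2 (listed as CTC-360G5.8 in the counts), overlaps SARS2 on the same strand by 15493 bases, nearly the whole span of SARS2. AC011455.2 also fell (log2 fold change −0.73, edgeR adjusted p = 2.84e-09), and counting by strand would not separate its reads. The part of its reads in the SARS2 values was not tested.

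NARS2 (asparagine) and EARS2 (glutamate) came next. NARS2 had 41.1, 43.3 and 38.2 CPM in shFOXA2 libraries, against 56.0, 57.8 and 58.6 CPM in shNC libraries. EARS2 had 53.3, 47.7 and 45.5 CPM in shFOXA2 libraries, against 64.1, 65.2 and 61.5 CPM in shNC libraries. Both genes had every shFOXA2 library below every shNC library. The log2 fold change of NARS2 was −0.50 (SE 0.07, edgeR adjusted p = 4.77e-08). For EARS2 it was −0.38 (SE 0.06, edgeR adjusted p = 4.69e-06).

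AARS2 (alanine) and TARS2 (threonine) fell by smaller amounts. AARS2 had 27.9, 24.6 and 26.8 CPM in shFOXA2 libraries, against 34.3, 33.6 and 32.6 CPM in shNC libraries. TARS2 had 27.2, 28.5 and 23.7 CPM in shFOXA2 libraries, against 32.4, 34.7 and 30.6 CPM in shNC libraries. Neither gene had overlapping groups. The log2 fold changes were −0.33 and −0.30 (edgeR adjusted p = 0.000891 and 0.0037). WARS2 (log2 fold change −0.27, adjusted p = 0.0185) and HARS2 (−0.20, adjusted p = 0.0337) were also called lower. The HARS2 groups overlapped. The HARS2 call was lost without replicate 1 (adjusted p = 0.109) or replicate 3 (0.110) of shFOXA2 or replicate 3 of shNC (0.146). The WARS2 call was lost without replicate 1 (adjusted p = 0.0688) or replicate 3 (0.0557) of shFOXA2 or replicate 2 of shNC (0.0919).

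IARS2 (isoleucine), the most abundant mitochondrial enzyme gene, moved the other way. It had 154, 156 and 149 CPM in shFOXA2 libraries, against 136, 123 and 135 CPM in shNC libraries. The groups did not overlap, and the log2 fold change was 0.22 (SE 0.05, edgeR adjusted p = 0.000256). RARS2 (arginine) was the other gene called higher, with a log2 fold change of 0.21 (edgeR adjusted p = 0.0185), and was not called without replicate 1 of shNC (adjusted p = 0.201). Among the 7 genes not called, the log2 fold changes furthest from 0 were those of MARS2 (0.18, SE 0.09), FARS2 (−0.15, SE 0.13) and YARS2 (−0.14, SE 0.08). PARS2 had the widest error of the 7 (0.10, SE 0.14). MARS2 was called higher without replicate 3 of shNC (adjusted p = 0.0128). CARS2 had a log2 fold change of −0.01 (SE 0.05). In 10 of the 16 mitochondrial genes (62.5%) and 9 of the 20 cytosolic genes (45%), the shFOXA2 and shNC libraries did not overlap, and over all genes tested the share was 48.7%.

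For 16 amino acids the cytosolic and mitochondrial enzymes could be set side by side, in 17 pairs because EPRS pairs with both EARS2 and PARS2 and FARS2 with both FARSA and FARSB. In 4 pairs both genes fell, those for alanine, asparagine, serine and tryptophan. AARS, AARS2, NARS2 and SARS2 stayed called under all 15 alternatives, while NARS, SARS, WARS and WARS2 each lost the call in some. Over all genes tested, the share called lower was 19.8%. The pair in which the 2 genes were called in opposite directions was histidine, with HARS higher and HARS2 lower. The HARS2 call was also lost in some alternatives. HARS and HARS2 lie head to head on chromosome 5 and overlap by 437 bases on opposite strands, so reads in that stretch could be given to either gene. HARS2 also overlaps ZMAT2 by 639 bases on the same strand, and ZMAT2 fell (log2 fold change −0.21, edgeR adjusted p = 0.00123). HARS overlaps WDR55 by 221 bases on the opposite strand, and WDR55 rose (0.20, edgeR adjusted p = 0.00271). The part of shared reads in the HARS and HARS2 calls was not tested. In no pair were both genes called higher. In 4 pairs the cytosolic gene alone was called, in 4 the mitochondrial gene alone, and in 4 neither.

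**Figure D3:**
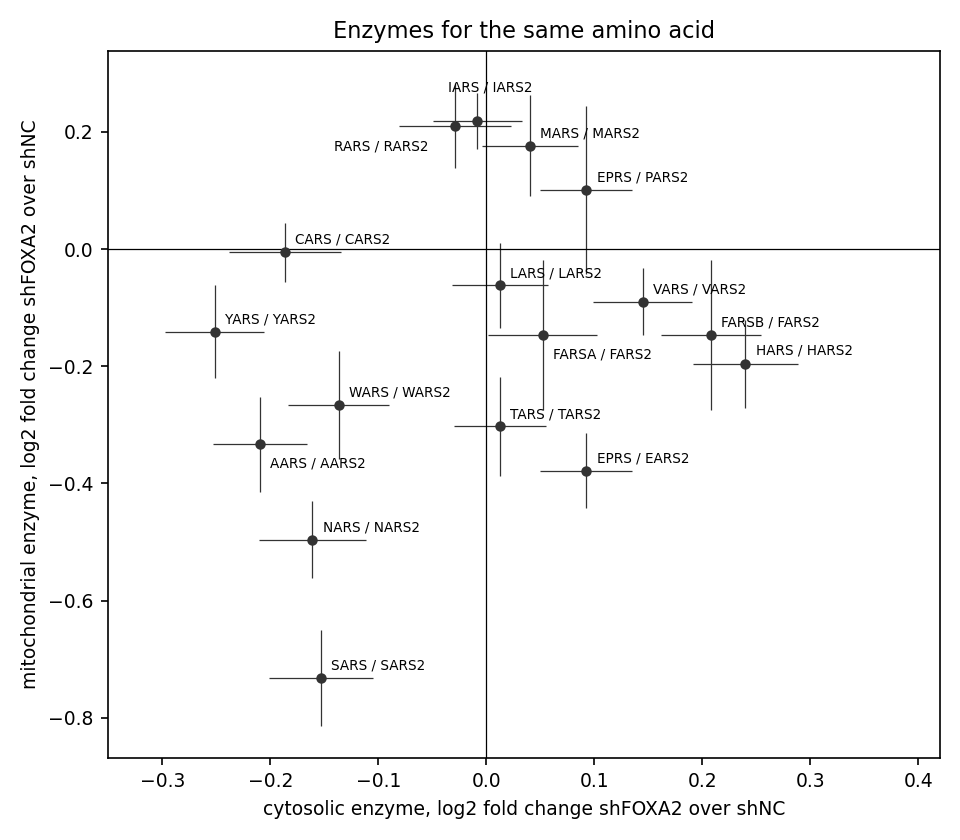
Log2 fold change of shFOXA2 over shNC for the cytosolic enzyme (x axis) and the mitochondrial enzyme (y axis) of each of 17 pairs for the same amino acid, with bars of 1 SE from edgeR. In the pairs for serine, asparagine, alanine and tryptophan both genes were called lower. In HARS / HARS2 the cytosolic gene was called higher and the mitochondrial gene lower.

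Because many cytosolic synthetase genes are known ATF4 targets, their promoters were searched for the ATF4 and C/EBP composite letters TGATGNAA on either strand. RefSeq windows of 300 bases on GRCh38.p14, running 250 bases before to 50 bases after the start, matched 30 of the 36 genes (16 cytosolic and 14 mitochondrial), with none for DARS, LARS, VARS, YARS, AARS2 and VARS2. Some genes have more than 1 window, and a gene was counted once if any of its windows held the letters. The letters occurred in 7 of the 16 cytosolic genes and in 1 of the 14 mitochondrial genes, against 1217 of 27305 genes with a window (4.46%). Stretches of 30 bases around 1 match in each of these genes, in the gene's orientation, with the matched letters or their reverse complement in capitals, were as follows.
AARS, minus strand, chr16:70289675-70289704: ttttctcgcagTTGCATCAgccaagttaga
CARS, minus strand, chr11:3057407-3057436: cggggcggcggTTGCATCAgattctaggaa
GARS, plus strand, chr7:30594834-30594863: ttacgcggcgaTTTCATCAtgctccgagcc
IARS, minus strand, chr9:92293692-92293721: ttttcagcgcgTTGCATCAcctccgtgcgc
MARS, plus strand, chr12:57488053-57488082: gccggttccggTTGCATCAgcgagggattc
NARS, minus strand, chr18:57621804-57621833: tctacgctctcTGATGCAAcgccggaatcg
TARS, plus strand, chr5:33440956-33440985: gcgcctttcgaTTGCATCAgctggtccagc
YARS2, minus strand, chr12:32756076-32756105: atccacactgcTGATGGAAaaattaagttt

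These windows are shown because the cytosolic genes that hold the letters split between called and uncalled. AARS, CARS and NARS fell in shFOXA2, and GARS, IARS, MARS and TARS were not called, against 19.8% of all genes called lower. Of the cytosolic genes with a window but without the letters, SARS and WARS fell, FARSB and HARS rose and the rest were not called. YARS, the largest cytosolic decrease, had no window. Whether the letters bear on these changes was not tested. GARS, with 183, 196 and 186 CPM in shFOXA2 libraries against 194, 206 and 201 CPM in shNC libraries, had overlapping groups (log2 fold change −0.09, adjusted p = 0.103). It was called lower without replicate 2 of shFOXA2 (adjusted p = 0.0498) or replicate 1 of shNC (0.0299). Each of the other motifs was found in fewer of the cytosolic genes, but the E-box and NRF1 motifs were in more of the mitochondrial genes than the composite letters. The forkhead letters TGTTTAC occurred in 1 cytosolic gene (CARS) and no mitochondrial gene, against 4.19% of all genes with a window. The E-box CACGTG occurred in 1 cytosolic gene (IARS) and 3 mitochondrial genes (CARS2, EARS2 and MARS2), against 8.77% of all genes with a window. The NRF1 motif, searched with its central base free, occurred in 3 cytosolic genes (FARSB, SARS and TARS) and 3 mitochondrial genes (IARS2, MARS2 and PARS2), against 6.98%. A match is a run of letters in a window and was not tested as a binding site.

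Genes of the amino acid response fell or were not called. Of 29 such genes, 28 could be tested (NUPR1 could not), and 12 fell and none rose, against 19.8% of all genes lower. At an unadjusted p under 0.05, 15 were lower and 0 higher. The median log2 fold change of the 28 was −0.13. ATF4 had 292, 289 and 292 CPM in shFOXA2 libraries, against 326, 327 and 333 CPM in shNC libraries. Its groups did not overlap (log2 fold change −0.17, edgeR adjusted p = 0.000596). ASNS, the asparagine synthetase that supplies the substrate of NARS, averaged 99.5 ± 4.54 CPM in shFOXA2 and 117 ± 9.04 CPM in shNC libraries (SD, n = 3 each, log2 fold change −0.23, edgeR adjusted p = 0.000498). CEBPB, a partner of ATF4 on the composite site, fell most, with 15.7, 16.7 and 16.8 CPM in shFOXA2 libraries against 30.4, 33.0 and 27.6 CPM in shNC libraries (log2 fold change −0.89, edgeR adjusted p = 1.28e-10). Its shFOXA2 libraries all lay below its shNC libraries. TRIB3, which binds ATF4, had a log2 fold change of −0.70 (edgeR adjusted p = 8.74e-11).

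**Figure D4:**
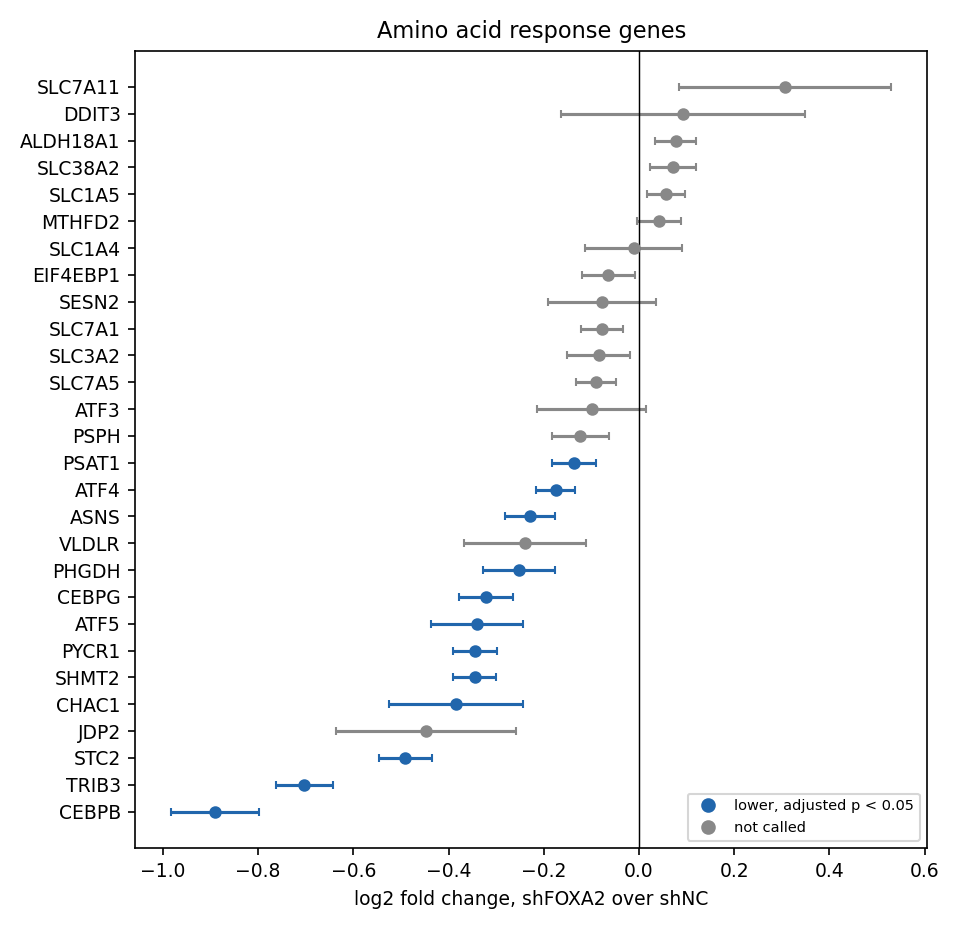
Log2 fold change of shFOXA2 over shNC (x axis) for the 28 tested amino acid response genes, with bars of 1 SE from edgeR and colours for the call at an adjusted p of 0.05. CEBPB (−0.89) and TRIB3 (−0.70) lie lowest, and none of the genes above 0 was called.

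Other steps of tRNA charging and use moved in both directions, in lists too short to set their shares firmly against the 19.2% of all genes called higher and the 19.8% called lower. Of 4 partners of mitochondrial charging, PET112, the older symbol of GATB, a subunit of the enzyme that makes mitochondrial glutaminyl-tRNA, fell, with 20.5, 26.2 and 24.4 CPM in shFOXA2 libraries against 33.9, 31.1 and 31.1 CPM in shNC libraries (log2 fold change −0.45, edgeR adjusted p = 6.65e-05). The other 3 were not called. Of 4 mitochondrial translation factors, GFM2 (log2 fold change 0.32, edgeR adjusted p = 4.48e-06) and GFM1 (0.17, edgeR adjusted p = 0.00291) rose, opposite in sign to most of the mitochondrial synthetases. Of 5 cytosolic elongation factors, EEF2 and EEF1D fell and EEF1B2 rose. EEF2, which moves the ribosome along the message, averaged 1572 ± 22.2 CPM in shFOXA2 and 2050 ± 97.4 CPM in shNC libraries (SD, n = 3 each, log2 fold change −0.38, edgeR adjusted p = 3.46e-10). Of 3 selenocysteine genes SEPHS2 fell (log2 fold change −0.19, edgeR adjusted p = 0.00875), of 3 tRNA end-processing genes ELAC2 rose (0.13, edgeR adjusted p = 0.0242), and the tRNA exporter XPOT (0.05, SE 0.04) was not called. Of 3 editing genes none was called by edgeR, nor at an unadjusted p under 0.05. MYC, a known activator of genes of translation, was not called (log2 fold change −0.09, SE 0.12, adjusted p = 0.626), and its partner MAX rose (0.28, edgeR adjusted p = 1.01e-05). Without replicate 1 of shNC, MYC was called lower (log2 fold change −0.20, edgeR adjusted p = 0.000145). MNT, which was listed with MYC and MAX, was called lower without replicate 1 of shFOXA2 or replicate 3 of shNC. The EEF1B2 call was lost without replicate 2 of shFOXA2 or replicate 2 or 3 of shNC, and the ELAC2 call without replicate 1 or 2 of shFOXA2 or replicate 1 or 3 of shNC.

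The 3′ UTRs of the 36 genes in GENCODE release 29 were searched for 2 stretches of the target of the first FOXA2 hairpin. They are in capitals in the target as labelled, gaacggcatgAACACGTAcat. The stretches AACACGT and ACACGTA were picked from an earlier ranking of these data. None of the 36 genes held either stretch, against 743 of 12914 tested genes with a 3′ UTR (5.75%). Other stretches of the target were not searched, and whether the hairpin pairs with synthetase messages was not tested.

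Between the untreated lines, the cytosolic enzymes spread more widely than the mitochondrial ones. At 2-fold and 4-fold the cytosolic share stayed below that of all genes. With 1 library per line no test is possible, and the 95% exact intervals cover counting error only. On the log2 scale with 1 CPM added, 2 cytosolic genes (10%), AARS and KARS, passed 2-fold with SW620 above SW480. None passed it with SW480 above SW620, and no mitochondrial gene passed it in either direction. Over all 21343 genes compared, 16.8% passed 2-fold, 7.99% with SW620 higher and 8.85% with SW480 higher. At 1.5-fold, 9 cytosolic genes (45%) passed, 3 higher in SW620 and 6 higher in SW480. Of the mitochondrial genes 3 (18.75%) passed, 2 higher in SW620 and 1 in SW480. Over all genes the share was 34.2% (16.7% higher in SW620 and 17.5% higher in SW480). No synthetase passed 4-fold, against 5.14% of all genes (2.27% higher in SW620 and 2.87% higher in SW480). The median log2 ratio of SW620 over SW480 was −0.18 over the cytosolic genes, 0.03 over the mitochondrial genes and 0.02 over all genes.

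AARS had 25071 counts in SW620 and 7453 in SW480, 2.45-fold higher in SW620 (2.39 to 2.51). KARS had 29729 counts in SW620 and 9344 in SW480, 2.32-fold higher in SW620 (2.26 to 2.37). Both lie on chromosome 16, AARS at chr16:70252295-70289543 and KARS at chr16:75627474-75648643 in GENCODE release 29 on GRCh38. The third synthetase gene of chromosome 16, EARS2 at chr16:23522014-23557731, had a ratio of 1.04. TERF2IP, a telomere protein gene whose start overlaps that of KARS on the opposite strand by 858 bases, was 3.57-fold higher in SW620 (3.42 to 3.73). Reads in that overlap could be given to either gene, since the strand setting is not stated. TERF2IP fell in shFOXA2 (log2 fold change −1.20, edgeR adjusted p = 6.59e-23), where KARS was not called. TARS (threonine) followed at 1.76-fold higher in SW620 (1.72 to 1.79).

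In the other direction, GARS had 12230 counts in SW620 and 17393 in SW480, 1.95-fold higher in SW480 (1.91 to 2.00). DARS (aspartate) was 1.69-fold higher in SW480 (1.64 to 1.73). Among the mitochondrial enzymes, VARS2 was 1.77-fold (1.69 to 1.86), TARS2 1.68-fold (1.58 to 1.79) and CARS2 1.43-fold (1.37 to 1.49) higher in SW620. RARS2 was 1.72-fold (1.63 to 1.82) and YARS2 1.46-fold (1.38 to 1.56) higher in SW480. SARS2 and NARS2, the lowest fold changes of the knockdown, had ratios of 0.903 (0.853 to 0.956) and 1.00 (0.955 to 1.06) between the lines. The amino acid response genes differed more, with 15 of 29 at least 2-fold higher in SW480 and 1 in SW620, against 8.85% of all genes for SW480 and 7.99% for SW620. ASNS was 3.07-fold higher in SW480 (2.94 to 3.20), while ATF4 was 1.09-fold higher there (1.07 to 1.11).

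**Figure D5:**
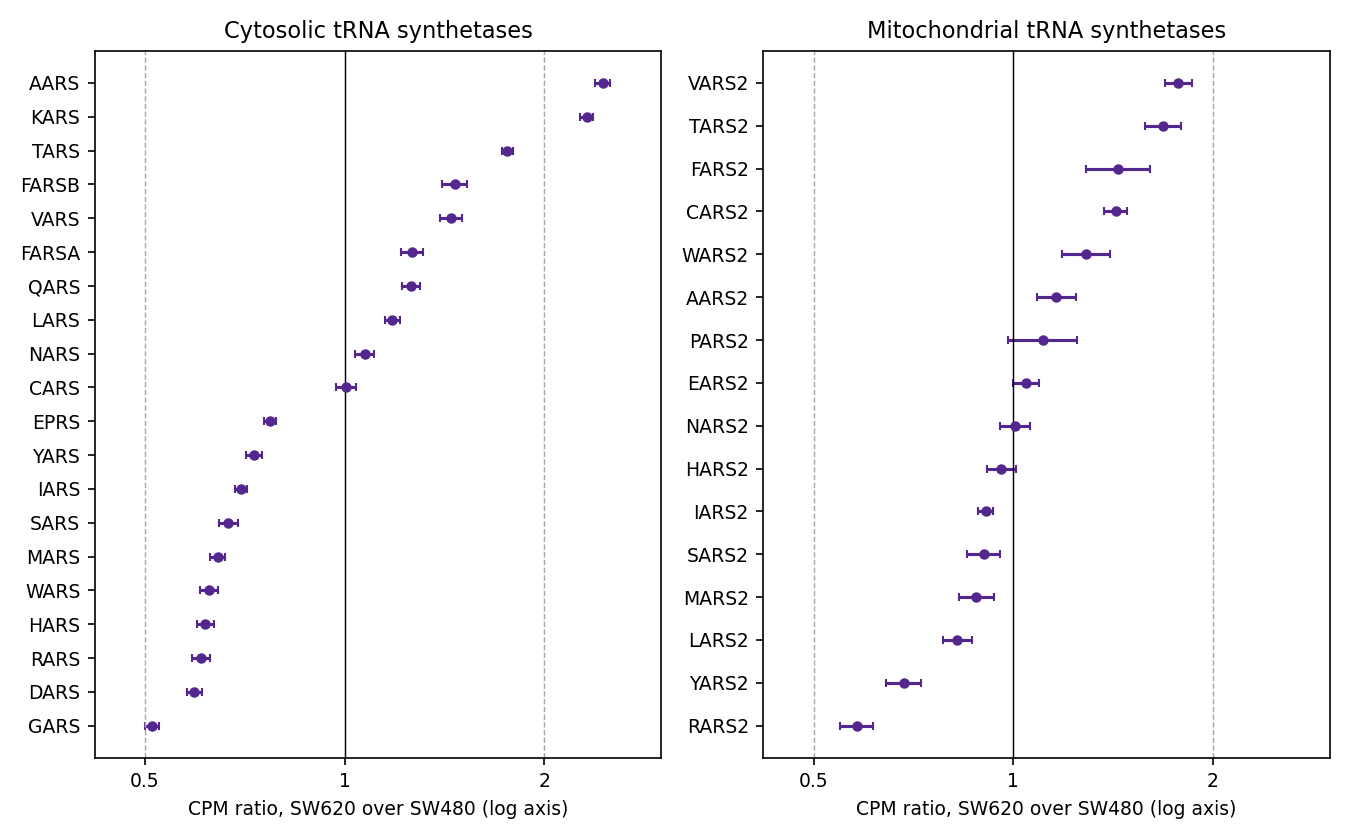
Ratio of TMM-scaled CPM, SW620 over SW480 (x axis, log scale), for the 20 cytosolic (left) and 16 mitochondrial (right) tRNA synthetases, 1 library per line, with exact 95% intervals for counting error and dashed lines at 2-fold. AARS (2.45) and KARS (2.32) lie past the upper dashed line, and GARS (0.512) lies lowest.

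Per kilobase of the length listed for each gene, cytosolic enzymes were at higher levels than mitochondrial ones in every group. The cytosolic median was 32.7 RPKM in shFOXA2, 33.9 in shNC, 21.9 in SW620 and 23.5 in SW480, and the mitochondrial median was 7.86, 9.41, 7.67 and 7.90 RPKM in the same groups. The hairpin and untreated libraries were scaled separately, so levels are not set against each other across them. KARS was the highest in shFOXA2 (143 ± 4.54 RPKM, SD, n = 3), shNC (140 ± 1.70, SD, n = 3) and SW620 (80.1), with AARS and TARS next in each. In SW480, GARS was highest at 59.1 RPKM, KARS was at rank 6 and AARS at rank 12. The sets overlapped in each group: IARS2, the highest mitochondrial gene, had 36.7 RPKM in shFOXA2, 31.6 in shNC, 30.9 in SW620 and 34.0 in SW480, above 11, 9, 17 and 13 of the 20 cytosolic genes. PARS2 (proline) was the lowest of the 36 in all 4 groups, at 4.13, 3.86, 3.06 and 2.76 RPKM.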

How the data were processed

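RNA libraries were made with a directional kit and sequenced on a HiSeq, per the labels' protocols. HOMER and the hg19 build are named in the submitters' processing notes. Which aligner, annotation and strand setting were used, and how multi-mapped reads were handled, is not stated in the labels. The deposited tables hold raw read counts per gene, made by the authors, beside RPKM values that equal count scaled by library size and listed length within 0.0001 in 100% of values above 20 counts. Each table has 42713 rows and 40693 symbols; 256 symbols repeat, and the row with the highest summed count was kept.

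The counts of 3 shFOXA2 and 3 shNC libraries were compared with edgeR 4.0.16 in R 4.3.3 (quasi-likelihood F test, two-sided, TMM scaling, default expression filter, robust), with Benjamini-Hochberg adjustment over all 16100 genes tested. Standard errors (SE) were obtained from the log2 fold change and its F statistic, and replicate variation (edgeR's common BCV) was 6.59%. Replicate numbers did not pair the libraries (correlations of deviations of −0.0044, −0.0468 and −0.0051). The script was tested on simulated counts with known changes. SW620 and SW480 were compared by ratios of TMM-scaled CPM, keeping genes that reached 20 counts in either library, with 1 CPM added where a threshold was counted. Intervals are exact at 95% and cover counting error only. Levels per kilobase were computed from CPM and listed lengths. DESeq2 1.42.0, limma 3.58.1 (voom), other scalings and filters, and each library left out were alternatives, with both replicates numbered 1 left out added after seeing the data.

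The genes and lists were chosen with earlier results of these data known. Full values are given for up to 10 cytosolic and 6 mitochondrial called genes of smallest p, ratios for the 5 of each with the largest difference between lines, and up to 4 genes of each other list. Neighbouring genes and the complex grouping were chosen after their values were seen.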

Additional observations from a re-analysis of the deposited data

How the results depend on the processing

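Of the 9 cytosolic and 9 mitochondrial genes called, 5 (YARS, AARS, CARS, FARSB and HARS) and 6 (SARS2, NARS2, EARS2, AARS2, TARS2 and IARS2) stayed called under all 15 alternatives. Cytosolic genes numbered 2 to 3 higher and 4 to 7 lower across single libraries left out, and mitochondrial genes 1 to 3 higher and 5 to 7 lower. The mitochondrial count called higher was 1 with no filter, with the DESeq2 Wald test, at an adjusted p of 0.01 and without both replicates numbered 1. With the DESeq2 Wald test, 5 cytosolic and 5 mitochondrial genes were lower, as at an adjusted p of 0.01. That test lost the calls of WARS, HARS2, WARS2 and RARS2 (DESeq2 adjusted p = 0.0511, 0.108, 0.0808 and 0.0694). It also lost the call of the scaffold gene EEF1E1 (0.075). The cytosolic median log2 fold change was −0.018 with no filter and −0.020 without both replicates numbered 1, and ranged from −0.024 to 0.018 with single libraries left out. With the replicate number as a block, the counts were 3 higher and 6 lower cytosolic and 2 higher and 7 lower mitochondrial genes. Of the list of MYC, MAX, MXD1 and MNT, 1 gene (MNT) was lower there, and 12 amino acid response genes were lower. Leaving out single libraries gave 10 to 16 amino acid response genes lower, 1 to 2 scaffold genes higher and 0 to 1 cytosolic elongation factors higher. It also gave 0 to 1 tRNA end-processing genes higher and 0 to 1 genes of the MYC list lower. Without both replicates numbered 1, an alternative chosen after seeing the data, these lists had 13, 1, 1, 0 and 1 genes, and selenocysteine charging had 0 lower. In that setting DDIT3, whose gene overlaps MARS on the opposite strand, had a log2 fold change of −0.30 (adjusted p = 0.000786) in place of 0.09 (adjusted p = 0.822), and single libraries left out gave −0.20 to 0.21; the cause was not tested. Between the lines, 0 cytosolic genes passed 4-fold in SW620, and at 1.5-fold 6 cytosolic genes were higher in SW480 and the mitochondrial counts were 2 in SW620 and 1 in SW480. The cytosolic median log2 ratio was −0.13 by total counts. The summed cytosolic log2 ratio was 0.037 by total counts and 0.038 per kilobase, and the mitochondrial one 0.098 and −0.054; the cause was not tested. With 1 library per line, the spread between cultures was not measured there.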
